A study of Mus musculus with 4 samples.

Results

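Precursor B cell genes were followed through 4 mouse libraries. Included were the surrogate light chain genes Igll1 and Vpreb1 and the related gene Vpreb3. The others were the recombination genes Rag1, Rag2 and Dntt, and Il7r, Myb, Cd93 and Cd24a. All 10 were chosen by name from the 38087 genes of the deposited read table, and each name matched 1 row. The question was whether a pre-B cell programme is present in the libraries of mice lacking Becn1 in myeloid cells. Libraries came from 2 samples labelled WT (C57BL/6, wild type for Becn1, postnatal week 20) and 2 labelled Becn1-M-KO (C57BL/6, Becn1 KO, postnatal week 20), here called KO. All 4 carry the label cervical lymph node. By the series text the KO tissue is lymphoma and the WT tissue a lymph node control, and the effect of genotype cannot be told apart from that of the tumour. No driver of the myeloid deletion is named. Whether both samples of a group are different mice is not stated either, and p-values therefore reflect sample spread that could be technical.

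B cells arise in the bone marrow. Pro-B cells cut and join their heavy chain gene segments with the recombinase made of the Rag1 and Rag2 proteins, and terminal transferase, encoded by Dntt, adds bases at the joints. A finished heavy chain is then displayed with a surrogate light chain, formed by the Igll1 and Vpreb1 proteins, as the pre-B cell receptor, while IL-7 received through Il7r drives the cells to divide. Igll1 and Vpreb1 are switched off after the pre-B cell receptor has signalled, so the mature B cells of a lymph node hold little of either. Several of the other genes have known sources besides precursor B cells. T cells carry Il7r, thymocytes carry the recombination genes, endothelium and myeloid cells carry Cd93, epithelium and red cell precursors carry Cd24a, dividing progenitors carry Myb, and Vpreb3 stays on in later B cells.

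Igll1 and Vpreb1 encode the surrogate light chain of the pre-B cell receptor. Vpreb3, a related gene outside that chain, had far more reads than either in WT replicate 2 and in KO. The 250 bases before the RefSeq start of each gene are shown (build GRCm38.p6, 5′ to 3′ on the gene's strand). Igll1 lies at chr16:16863986-16864235 on the minus strand, Vpreb1 at chr16:16869256-16869505 on the minus strand and Vpreb3 at chr10:75948050-75948299 on the plus strand. Capitals mark letters of 3 motifs searched on both strands: the octamer ATTTGCAT of the OCT factors, the EBF1 core CCCNNGGG and the E-box CANCTG of E2A.
Igll1: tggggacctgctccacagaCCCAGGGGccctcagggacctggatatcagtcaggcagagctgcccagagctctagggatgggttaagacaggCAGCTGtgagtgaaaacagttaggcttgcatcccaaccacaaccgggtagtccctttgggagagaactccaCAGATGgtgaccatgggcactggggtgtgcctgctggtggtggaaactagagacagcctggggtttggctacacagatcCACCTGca
Vpreb1: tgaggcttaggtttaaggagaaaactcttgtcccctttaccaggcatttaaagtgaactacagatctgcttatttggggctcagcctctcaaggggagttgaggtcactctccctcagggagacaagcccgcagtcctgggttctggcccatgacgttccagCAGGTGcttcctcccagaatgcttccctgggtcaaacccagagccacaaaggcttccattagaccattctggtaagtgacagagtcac
Vpreb3: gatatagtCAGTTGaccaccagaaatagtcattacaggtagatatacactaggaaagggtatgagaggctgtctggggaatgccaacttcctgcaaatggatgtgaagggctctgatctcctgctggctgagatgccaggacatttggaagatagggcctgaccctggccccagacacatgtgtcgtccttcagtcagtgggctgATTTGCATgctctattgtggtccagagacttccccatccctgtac
The Igll1 sequence held 1 EBF1 core, starting 231 bases before the start, and E-boxes at 158, 87 and 8 bases. The Vpreb1 sequence held 1 E-box at 88 bases and no match to the other motifs. In Vpreb3 an octamer began 45 bases before the RefSeq start and an E-box at 242 bases. That window lies inside the listed span of Vpreb3, whose GENCODE transcript Vpreb3-202 starts upstream of it, at 75943057. Of 32526 promoter windows of the same length, 1.6% held the octamer, 11.9% the EBF1 core and 44.9% the E-box, so the E-box is common among promoters and the octamer is not. No 2 motif matches overlapped in these 3 windows, and a match is a description of the letters, not evidence of binding. Ebf1, the factor named for the second motif, stood at 15.5 and 131 CPM in WT against 73.9 and 64.5 CPM in KO (reads per 1000000 reads of the TMM-scaled library total).

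Depth ranged from 15604247 to 20067004 reads, so 3 reads equal 0.149 to 0.192 RPM (reads per 1000000 reads of the unscaled library total). This was taken as the limit that a count of 0 allows, except where an exact limit is given. The KO libraries carried B cell RNA. Summed levels of 12 pan-B genes (Ms4a1, Cd79a and others) were 48.7 and 2253 RPM in WT, where replicate 1 is the lower, against 3920 and 3851 in KO, and no pan-B gene was at 0 in any library. WT replicate 1 held few lymphocyte reads of any kind, with 16.2 RPM over 12 T cell genes where WT replicate 2 had 989 and KO 789 and 788. Its TMM scaling factor was 0.513, against 1.18 to 1.30 in the other libraries, so the scaling bears on its CPM values. Epithelial levels (12 genes) went the other way, at 1502 and 1314 RPM in WT against 13.7 and 21.8 in KO, with 4 of the 12 genes at 0 in KO replicate 1. Becn1 stood at 54.8 and 63.4 CPM in WT against 49.5 and 53.3 CPM in KO (log2 fold change −0.20, SE 0.21, adjusted p = 0.557). Sex went with the groups too and cannot be told apart from genotype: Xist, a female-specific transcript, had 2088 and 5314 reads in WT but 3 and 34 in KO. In whole tissue, fewer cells of a type and less RNA per cell cannot be told apart.

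**Figure D1:**
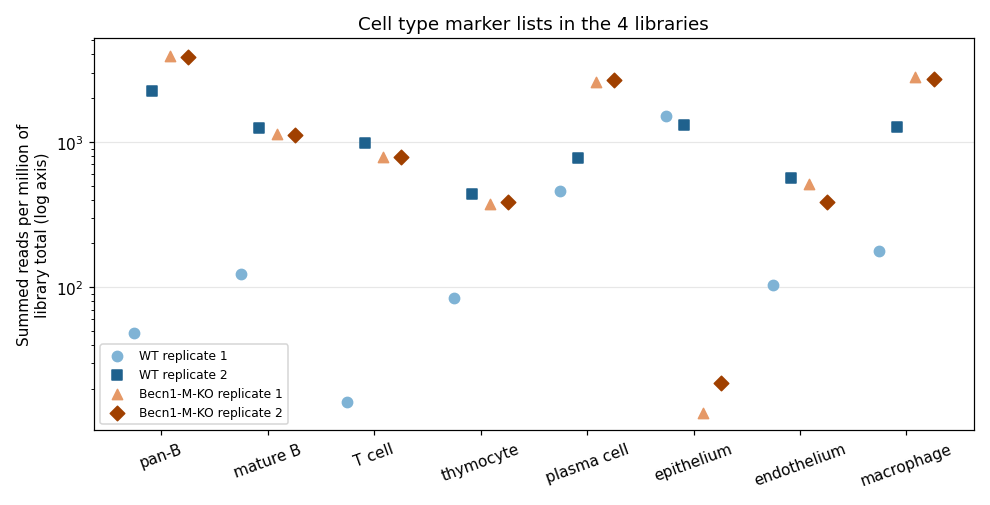
Summed level of 8 cell type marker lists in RPM (log axis), 1 symbol per library. WT replicate 1 is lowest in the pan-B (48.7) and T cell (16.2) lists, and the KO libraries are lowest in epithelium (13.7 and 21.8).

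Igll1 was essentially unread. This gene encodes the constant-like half-chain of the surrogate light chain and lies on chromosome 16 from 16860671 to 16863985, with 3 exons in the GENCODE M21 transcript Igll1-201. It had 0 and 1 reads in WT against 1 and 0 reads in KO. The single KO read covered 19.0 bases of the gene, against a median of 76.4 bases per read over 9216 well-covered genes of that library. The exact 95% Poisson upper limit of the 1 read in KO replicate 1 was 0.357 RPM. For the 0 reads in KO replicate 2 the same limit was 0.184 RPM. Over the pooled libraries, 1 of 35671251 KO reads and 1 of 34016304 WT reads fell in Igll1, a ratio of 0.954 with a counting interval of 0.0121 to 74.9. None of the 821 windows of 50 bases in its transcript occurs in the transcript of another gene.

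Vpreb1, the variable-like chain that pairs with Igll1, had a few reads everywhere: 4 and 17 in WT and 11 and 16 in KO. The KO values lay between both WT values. The difference was −0.21 on the log2 scale (SE 0.44, adjusted p = 0.779), and a difference in either direction was not detectable at this depth. Per kilobase of exon, Vpreb1 stood at 0.588 and 0.665 RPM per kilobase in KO, above 38.7% and 39.2% of 21808 protein-coding genes. Igll1 on the same scale stood at 0.0296 and 0.

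The Vpreb1 reads may not all be its own. The listed gene runs from 16868402 to 16870843 on chromosome 16, but its coding transcript Vpreb1-201, read on the minus strand, starts at 16869255. The remaining 1588 bases, 65.0% of the listed span, lie upstream of that start. Their last 108 bases (16870736 to 16870843) overlap the start of Top3b on the opposite strand. Top3b had 245 and 776 reads in WT against 766 and 971 in KO. The table does not say where in the span a read fell, so the share of Vpreb1 reads from its coding exons was not tested. A second limit is a near copy: 32.5% of the 50-base windows of Vpreb1-201 also occur in Vpreb2. Vpreb2 itself was read 0 and 5 times in WT and not at all in KO, where 3 reads are 0.192 and 0.149 RPM.

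**Figure D2:**
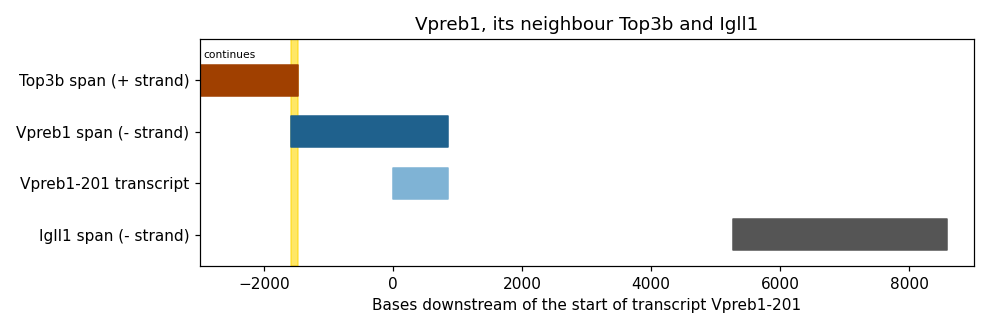
Map of Vpreb1, its neighbour Top3b and Igll1 in bases downstream of the start of transcript Vpreb1-201 (0), in the direction of Vpreb1. Bars are the spans listed with the reads and the coding transcript of Vpreb1, and the shaded band is the overlap of 108 bases between the Vpreb1 and Top3b spans, from −1588 to −1481.

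Vpreb3, a related gene outside the surrogate light chain, had more than 20 reads in a library, unlike Igll1 and Vpreb1. It encodes a small immunoglobulin-like protein that binds newly made chains inside B cells, and lies on chromosome 10 from 75943057 to 75949657. It had 2 and 227 reads in WT against 122 and 133 in KO, or 0.241 and 10.8 CPM in WT against 6.14 and 5.12 CPM in KO. The KO libraries lay between a WT library with almost none and one with about as much again. The difference was −0.02 on the log2 scale (SE 1.39, adjusted p = 0.992). Leaving out WT replicate 1 gave −0.94 (adjusted p = 0.00200), and leaving out WT replicate 2 gave 4.48 (adjusted p = 1.45e-05). Per kilobase of exon Vpreb3 stood above 76.7% and 73.4% of protein-coding genes in KO, and above 86.5% in WT replicate 2.

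Recombination genes were at the edge of detection. Rag1, the catalytic subunit of the recombinase, lies on chromosome 2 from 101638282 to 101649501 and had 0 and 1 reads in WT against 7 and 4 in KO. Both KO libraries were above both WT libraries, at 0.449 and 0.199 RPM. The pooled ratio of KO to WT was 10.5, with a 95% counting interval of 1.52 to 452 that covers counting error only. Rag1 did not pass the count filter; without that filter its adjusted p was 0.342. Its KO level per kilobase of exon lay above 20.9% and 14.6% of protein-coding genes.

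Rag2, the partner subunit, lies beside Rag1 (101624718 to 101632529) and had 6 and 19 reads in WT against 5 and 12 in KO. Its levels were 0.725 and 0.906 CPM in WT against 0.251 and 0.462 CPM in KO, and the log2 fold change of −1.18 (SE 0.49) was not past the threshold (adjusted p = 0.225). The groups did not overlap in CPM but did in RPM, at 0.372 and 1.06 in WT against 0.320 and 0.598 in KO, and with library totals the log2 fold change was −0.63. Both genes lie inside the span of B230118H07Rik, a protein-coding gene on the minus strand with 132 and 182 reads in WT against 61 and 69 in KO. Of the 50-base windows, 0.5% of Rag1-201 and 4.8% of Rag2-201 occur in transcripts of that gene. Whether its reads were counted for Rag1 or Rag2 was not tested.

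Dntt, terminal transferase, lies on chromosome 19 from 41029275 to 41059523, where 30249 bases hold 12 exons of transcript Dntt-201. It had 1 and 35 reads in WT against 15 and 25 in KO. WT replicate 1 was the lowest library and WT replicate 2 the highest. The difference was −0.23 on the log2 scale (SE 0.96, adjusted p = 0.891), −0.93 without WT replicate 1 and 2.76 without WT replicate 2. Summed levels of thymocyte genes were 84.3 and 437 RPM over 8 genes in WT against 375 and 388 in KO, with 0 genes at 0; their part in the Dntt reads was not tested.

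The 5 genes with little known use outside precursor lymphocytes (Rag1, Rag2, Dntt, Igll1 and Vpreb1) summed to 11 and 73 reads in WT against 39 and 57 in KO. That is 0.681 and 4.08 RPM in WT against 2.50 and 2.84 in KO. WT replicate 2 held the most and WT replicate 1 the least.

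**Figure D3:**
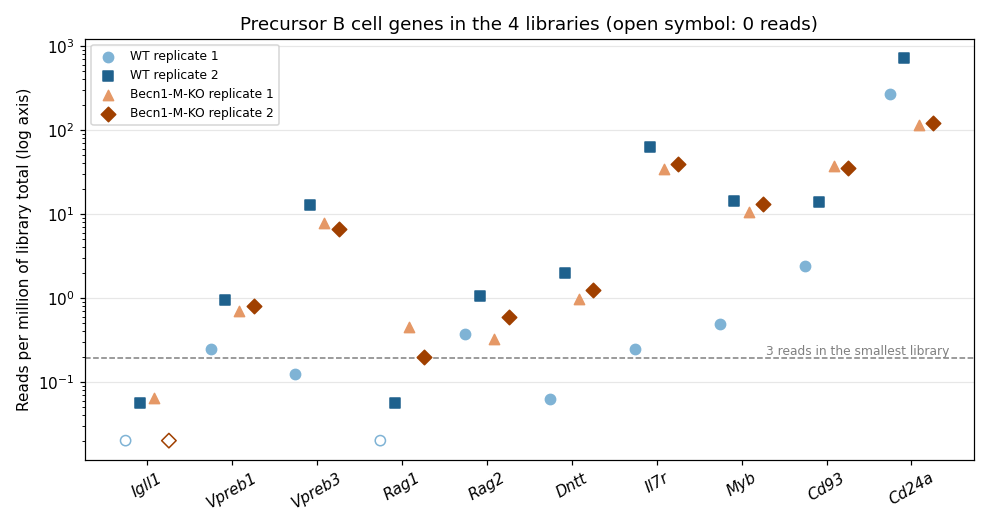
Level in RPM (log axis) of the 10 genes in the 4 libraries; open symbols at the bottom are libraries with 0 reads, and the dashed line is 3 reads in the smallest library. Igll1 lies below that line in every library, and Cd24a is the only gene above 100 in all 4.

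Il7r, the receptor chain for IL-7, lies on chromosome 15 from 9506161 to 9529876. It stood at 0.483 and 53.7 CPM in WT against 27.0 and 30.5 CPM in KO. The KO values again lay between both WT values. The difference was 0.07 on the log2 scale (SE 1.70, adjusted p = 0.981). Against WT replicate 2 alone Il7r fell by 0.89 (adjusted p = 5e-05), and against WT replicate 1 alone it rose by 5.86 (adjusted p = 2.94e-09). As for the T cell list, WT replicate 1 was lowest and WT replicate 2 highest. Per 1000 T cell list reads there were 15.3 and 63.7 Il7r reads in WT against 43.6 and 50.1 in KO, with 0 T cell genes at 0 in any library, and the part of T cells in the Il7r level was not tested.

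Myb, a transcription factor of dividing progenitors, lies on chromosome 10 from 21124930 to 21160984. It stood at 0.966 and 12.1 CPM in WT against 8.40 and 10.3 CPM in KO, with a log2 fold change of 0.48 (SE 1.1, adjusted p = 0.800). Without WT replicate 1 the value was −0.36 (adjusted p = 0.120). Without WT replicate 2 it was 3.26 (adjusted p = 5.46e-06). The noncoding antisense gene AC153556.1 lies within Myb on the opposite strand and had 2 and 81 reads in WT against 57 and 98 in KO, so the reads of the pair may be shared. Summed levels of 8 cell cycle genes were 13.4 and 112 RPM in WT against 384 and 438 in KO, a difference between WT replicate 2 and KO that Myb did not show.

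Cd93, like Rag1, had both KO libraries above both WT libraries, as had 34.3% of all tested genes in CPM. It encodes a surface glycoprotein of immature B cells, endothelium and myeloid cells, and lies on chromosome 2 from 148436640 to 148443563. Its levels were 4.71 and 11.9 CPM in WT against 29.3 and 27.7 CPM in KO. The difference was 1.76 on the log2 scale (SE 0.50). It was not called (adjusted p = 0.134), but passed with DESeq2 (1.77, adjusted p = 0.0257) and against either WT library alone (1.26 and 2.58). Macrophage list levels (10 genes, Csf1r and C1qa among them) were 178 and 1262 RPM in WT against 2815 and 2701 in KO, with 0 genes at 0. Of these 10 genes, 9 had positive log2 fold changes and 1, Lyz2, a negative one. Lyz2 supplied 30.7 and 665.5 RPM of the WT sums and 166.5 and 188.3 RPM of the KO sums. Endothelial list levels (10 genes) were 103 and 564 RPM in WT against 513 and 389 in KO, with 0 genes at 0. The part of either cell type in the Cd93 level was not tested.

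Cd24a, which encodes the CD24 surface glycoprotein, was the one gene that fell. It lies on chromosome 10 from 43579169 to 43584262 and stood at 528 and 615 CPM in WT against 90.4 and 94.5 CPM in KO. Both WT libraries were high, the one poor in B cell reads included. The difference was −2.63 on the log2 scale (SE 0.31, adjusted p = 0.0475), and −2.73 and −2.53 against WT replicates 2 and 1 alone. The authors' deposited table of comparisons lists Cd24a at −2.63 with an unadjusted p of 0.000914, and no other gene of the 10. That table holds 5511 genes and comes from the same 4 libraries. The authors' short lists of 86 higher and 71 lower genes hold 0 of the 10. Epithelial list reads were lower in KO as well (above), and 7 erythroid genes summed to 568 and 429 RPM in WT against 91.9 and 61.7 in KO, with 0 genes at 0. The part of either in the Cd24a level was not tested. The adjusted p was above 0.05 with library totals in place of TMM scaling (0.337), with the replicate number as a block (0.0990), with crossed numbers (0.0676) and without KO replicate 1 (0.518) or 2 (0.497). Cd24a supplied 98.6% and 87.0% of the 10 genes' reads in WT and 55.4% and 55.5% in KO, so a sum over the 10 genes is mostly a Cd24a level.

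As a group, 8 of the 10 genes passed the count filter, all but Rag1 and Igll1. None of the 8 rose and 1 fell at an adjusted p under 0.05, where 1.04% of 20695 tested genes were called higher and 2.18% lower. At an unadjusted p under 0.05 the counts were 1 higher (Cd93) and 1 lower (Cd24a), where 10.5% and 16.4% of tested genes were. DESeq2 called 1 higher and 1 lower (6.4% and 11.7% of tested genes), and limma-voom 0 and 1 (1.21% and 1.95%). The median log2 fold change of the 8 was −0.12, beside 0.01 over all tested genes, and 3 of the 8 values were positive. With library totals alone the median of all genes shifted to 0.60 and 6 of the 8 were positive. Against WT replicate 2 alone, Cd93 was higher and Vpreb3, Il7r and Cd24a were lower, where 20.9% of 21844 tested genes were higher and 22.8% lower. The median was then −0.91, beside 0.0045 over all genes. Against WT replicate 1 alone, Vpreb3, Il7r, Cd93 and Myb were higher and Cd24a lower, where 32.3% and 32.5% of 21327 tested genes were called. Of all 10 genes, the KO libraries lay above both WT libraries in CPM for 2, below both for 2 and neither for 6, beside 34.3% above and 33.3% below over all tested genes. In RPM the counts were 2 above and 1 below, beside 51.0% and 15%. None of these CPM and RPM counts against both WT libraries exceeded the share over all tested genes. Against WT replicate 2 alone both KO libraries were lower for 7 of the 10 and higher for 2, beside 44.5% lower and 43.8% higher over all tested genes.

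**Figure D4:**
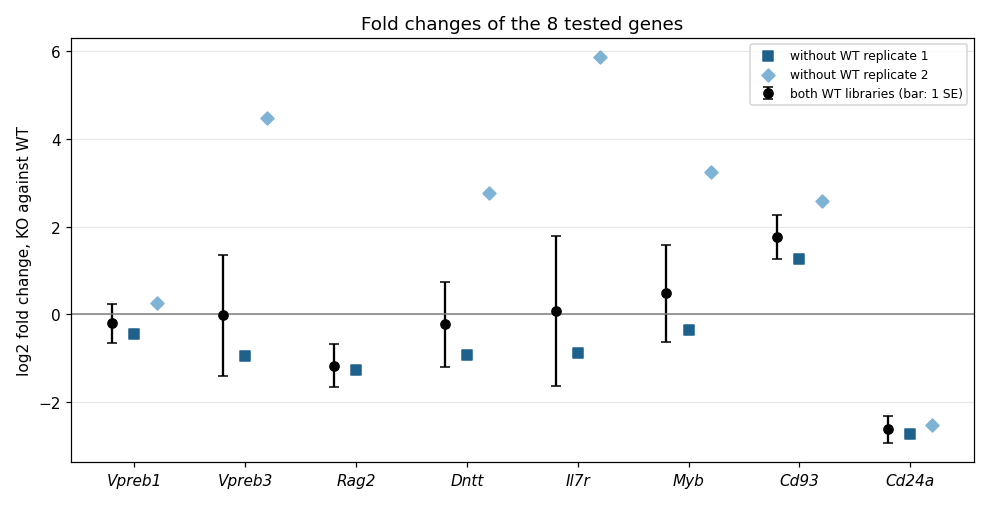
Log2 fold change of KO against WT for the 8 tested genes with both WT libraries (circles, bar 1 SE) and with 1 WT library left out. Il7r moves from −0.89 to 5.86 with the WT library used, while Cd24a stays between −2.53 and −2.73.

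Set against B cell RNA, the share of precursor genes lower in KO was that of all genes. Both KO libraries held fewer reads per 1000 pan-B list reads than WT replicate 2 for 8 of the 10 genes, Igll1 among them on single reads, and more for Rag1 and Cd93. Over all tested genes 80.0% were lower and 15% higher by this measure, with pan-B list levels of 2253 RPM in WT replicate 2 against 3920 and 3851 in KO. Per 1000 T cell list reads 5 of the 10 were lower, 2 higher and 3 neither, beside 22.6% lower and 69.4% higher over all genes. Replacing pan-B list reads by T cell list reads shifts the log2 ratio of KO to WT replicate 2 of every gene by the same amount. The moves from −1.54 to −0.43 for Il7r and from −1.59 to −0.48 for Dntt are therefore not particular to these genes. Vpreb3 had 1.995 and 1.72 reads per 1000 pan-B list reads in KO and 5.64 in WT replicate 2. For Dntt the KO values of 0.245 and 0.324 compare with 0.869 in WT replicate 2. Vpreb1 had 0.180 and 0.207 in KO and 0.422 in WT replicate 2. The 5 restricted genes together had 0.638 and 0.738 reads per 1000 in KO and 1.81 in WT replicate 2. The WT side of this comparison is 1 library, so there is no replicate check. WT replicate 1 had 786 pan-B list reads in all against 40275 in WT replicate 2, and its ratios (13.99 per 1000 for the 5 genes) rest on 11 reads.

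**Figure D5:**
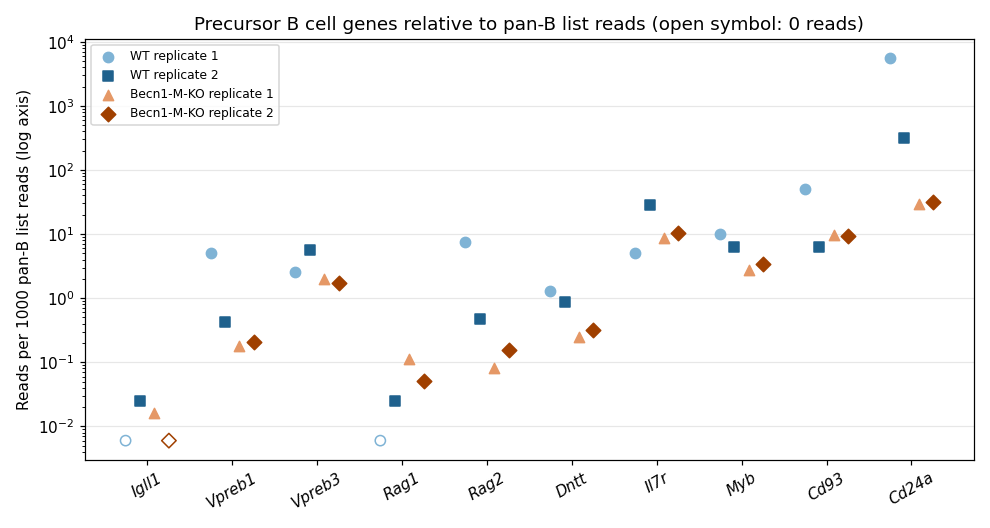
Reads of each gene per 1000 pan-B list reads (log axis) in the 4 libraries; open symbols are libraries with 0 reads. For Vpreb3 the KO libraries sit at 1.995 and 1.72, below 5.64 in WT replicate 2, and for Cd93 at 9.52 and 9.29, above 6.21.

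Other genes of the early B lineage gave a mixed picture. Of 16 such genes 15 were tested and 0 passed in either direction. At an unadjusted p under 0.05, 0 were higher and 3 lower, where 10.5% and 16.4% of tested genes were. DESeq2 called 0 higher and 3 lower, where 6.4% and 11.7% of tested genes were. Those were Enpep, the BP-1 antigen of pre-B cells (3.87 and 4.44 CPM in WT, 1.06 and 0.732 CPM in KO, log2 fold change −2.22, adjusted p = 0.0671), Sox4 (−2.26, adjusted p = 0.0762) and Cecr2 (−1.33, adjusted p = 0.0970). WT replicate 1, poor in B cell reads, still held Enpep at 3.87 CPM, Sox4 at 31.2 CPM and Cecr2 at 9.78 CPM. WT replicate 2, with far more B cell reads, stood at 4.44, 16.1 and 11.0 CPM in the same order. The part of B cells or of other cell types in the levels of these 3 genes was not tested. The list median was −0.05 with both WT libraries. Against WT replicate 2 alone it was −0.74, beside 0.0045 over all tested genes.

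Pre-B cell receptor partners that mature B cells also use had higher mean levels in KO, without passing the test. All 14 genes of that list were tested and had positive values, as had 10443 of 20695 tested genes. The list median was 1.53, beside 0.01 over all tested genes, and 0 passed. At an unadjusted p under 0.05, 1 was higher, where 10.5% of tested genes were. DESeq2 called 1 higher, where 6.4% of tested genes were. Plcg2, which encodes a phospholipase of the receptor pathway, had a log2 fold change of 1.24 (adjusted p = 0.153). Lyn and Blnk, a kinase and an adaptor of the same pathway, had values of 1.37 and 1.45 (adjusted p = 0.255 and 0.265). Against WT replicate 2 alone the median of the 14 was 0.80. The direction of the receptor list was therefore opposite to that of Vpreb3 (−0.94) and the early list in that comparison, though the difference between lists was not tested.

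Among 13 recombination cofactor and end joining genes, 0 passed in either direction, where 1.04% of tested genes were higher and 2.18% lower. At an unadjusted p under 0.05 the count was also 0, where 10.5% and 16.4% of tested genes were. DESeq2 called 0, where 6.4% and 11.7% of tested genes were. Their median was 0.12, beside 0.01 over all tested genes. The IL-7 signalling list (11 genes) had 1 member lower and 0 higher, where 2.18% and 1.04% of tested genes were. Socs2, a feedback inhibitor induced by STAT5, fell from 44.9 and 43.3 CPM in WT to 12.5 and 11.4 CPM in KO (−1.88, SE 0.20, adjusted p = 0.0456), a call that, like all others, was not made without either KO library. Pim1, a kinase also induced by STAT5, had a value of 2.63 (adjusted p = 0.0530), and Cish of −2.02 (adjusted p = 0.157). The values of Socs2 and Pim1 thus had opposite signs. Il7 itself stood at 0.725 and 4.44 CPM in WT against 2.82 and 2.93 CPM in KO.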

How the data were processed

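Per the labels' protocols, total RNA of 4 mouse samples went through ribosomal RNA depletion and an Ion Total RNA-Seq library kit. The authors deposited raw read counts per gene and a mean coverage signal over each gene's span, per the file headers. They also deposited centred log2 values (median 0 over the 4 libraries for all 38087 genes, within 1e-05), which were only inspected, and a table of log2 fold changes with unadjusted p-values, per the file headers. The submitters' processing notes name mm10 and DESeq2 1.62, with no role. The aligner and counting rule were not given in the sources used here. Gene lengths in the table equal the genomic span, and reads in introns may therefore be included. Another 4 columns of per-sample values (low-coverage bases) were not used.

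The main test was edgeR's quasi-likelihood test (version 4.0.16, R 4.3.3) with TMM scaling, after filterByExpr at 10 reads per library and 15 in all. P-values were adjusted over all tested genes by the Benjamini-Hochberg method (threshold 0.05), and the standard error (SE) was taken as the log2 fold change over the square root of its F statistic. DESeq2 1.42.0 and limma 3.58.1 were alternatives, with other scalings, filters, a replicate block and each library left out. A comparison against 1 WT library takes its spread from KO alone and assumes that WT varies alike. Library totals were 16141605 and 17874699 reads (WT) against 15604247 and 20067004 (KO). Intervals are exact, at 95%, and cover counting error only. Exons and transcripts are from GENCODE M21 (GRCm38), and promoters from RefSeq, where 8 of the 10 genes have an entry. Of 177 list entries 175 matched a gene, by symbol or Ensembl ID. The fit was tested on simulated counts.

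The genes and lists were chosen with earlier results of these data known. Named were the 10 genes, Becn1, Vpreb2, genes that overlap a member, and up to 3 genes per list with the smallest p. Ebf1, Il7, Lyz2, Xist and the sum over 5 restricted genes were chosen after their values were seen.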

Additional observations from a re-analysis of the deposited data

How the results depend on the processing

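Cd24a was the only called gene of the 10 in the main test. Its fold change kept its sign under every alternative run, as did that of Cd93 and, where tested, Rag2. Over all genes, 216 were called higher and 451 lower. The counts were 0 and 0 with library totals alone and with a replicate block, and 542 and 1188 without a count filter. DESeq2 gave 1325 and 2430. Leaving out each library gave between 0 and 6887 higher and between 0 and 6922 lower: 4573 and 4988 without WT replicate 1, 6887 and 6922 without WT replicate 2, and 0 without either KO library. Where edgeR called 0, genes at an unadjusted p under 0.05 numbered 1472 higher and 1505 lower with library totals, 1866 and 2734 with the block, 732 and 1318 without KO replicate 1, and 743 and 1342 without KO replicate 2. Of the 10 genes, 0 were higher and 1 lower. The lower count was 0 with library totals, the replicate block and the crossed numbers, and the higher count was 1 with DESeq2. With each library left out the counts ranged from 0 to 4 higher and from 0 to 3 lower. Library totals moved the median of all genes to 0.60 (log2), and fold changes of Dntt (0.12), Vpreb1 (0.31) and Vpreb3 (0.16) turned positive, which is below that shift. Dntt and Vpreb3 also turned positive with limma-voom (0.34 and 1.07) and the replicate block (0.22 and 1.06), and Vpreb3 with DESeq2 (0.0346). With each library left out, Dntt ranged from −0.93 to 2.76, Vpreb1 from −0.45 to 0.26, Vpreb3 from −0.94 to 4.48, Il7r from −0.89 to 5.86 and Myb from −0.36 to 3.26. The cause was not tested. Replicate numbers did not pair the samples by the labels, and the deviations of same-numbered libraries correlated at −0.11 over genes. A crossed pairing, chosen after seeing the data, gave 202 and 643 calls, with Dntt at 0.21 and Vpreb3 at 1.08. Rag2 had too few reads to be tested without WT replicate 2, and Rag2 and Vpreb1 with the stricter filter (at least 1 CPM in 2 libraries and 20 reads in all). At these depths counts under about 10 reads leave Igll1, Rag1 and Vpreb2 without a usable test.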
